A study of Mus musculus with 2 samples.

Results

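The 9 genes described here, Sod1, Tardbp, Smn1, Optn, Tbk1, Ubqln2, Sqstm1, Pfn1 and Kif5a, are mouse counterparts of human genes whose mutations cause inherited motor neuron disease. They were taken by name from the 21911 protein-coding genes of GENCODE release M21, and all 9 were found. Their chromatin was read from DNase-seq of MN1, an immortalized mouse line of strain B6NCrl, for which no tissue, sex or age is given here. DNase-seq maps stretches of open chromatin, which the nuclease DNase I cuts more readily than the DNA around them. Both libraries, biological replicates 1 and 2, came from cells given methyltrienolone, a synthetic androgen, at 10 nM, so they form 1 group. No untreated cells were analysed here, and each value below is a level in androgen-treated cells, not a response to the androgen.

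Motor neurons send axons over long distances to muscle, and several cell functions are known to fail in their inherited diseases. TARDBP and SMN1 serve RNA processing, and loss of SMN1 causes spinal muscular atrophy. SOD1 removes superoxide. TBK1, OPTN, SQSTM1 and UBQLN2 direct damaged proteins and organelles to autophagy or the proteasome, and PFN1 and KIF5A serve the cytoskeleton and axonal transport. Mutations in these genes other than SMN1 are causes of amyotrophic lateral sclerosis. Most of these proteins are made in many cell types, while KIF5A is a kinesin of neurons.

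The peak lists held 189648 distinct peaks in replicate 1 and 170745 in replicate 2, each 150 bp wide. Each peak carries the authors' own score, a whole number from 1 to 150 with a median of 53 in replicate 1 and 51 in replicate 2. What the score measures and the sequencing depth behind it are unknown, so scores were only ranked within a list. Overlapping peaks of both replicates were merged into 127807 shared regions, of which 76125 lay over 2.5 kb from every annotated transcription start site (TSS); these are called distal. Per the labels, replicate 1 was sequenced on HiSeq 2500 and NextSeq 500 machines and no machine is named for replicate 2. A sequencing batch cannot be told apart from the replicate.

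All 9 genes had open chromatin at their promoters in both replicates. Each had at least 1 shared region within 1 kb of an annotated TSS, against 13032 of the 21911 protein-coding genes (59.5%). Each also had a promoter hotspot, a wider stretch of significant cutting, in both replicates, against 59.9% of all protein-coding genes. The −log10 of its false discovery rate was at 100, the top value of the files, at all 9 genes in both replicates, as it was at 93.9% of all genes with a shared promoter region. The highest promoter peaks of both replicates overlapped at all 9 genes, against 91.3% of such genes. Both shares are near those of open promoters in general. With 2 libraries of 1 group there is no test of these counts, and the lack of a peak elsewhere does not show that DNA was closed.

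Although all were open, the 9 promoters differed in peak score, and strong and weak refer here to this score alone. The score of the highest promoter peak ranged from 113 to 146 in replicate 1 and from 102 to 141 in replicate 2, at Optn and Tbk1 as the lowest and highest in both. Each score was placed as a percentile among all protein-coding genes with a promoter peak in the same replicate. The mean percentile of both replicates (± SD, n = 2) was 84.5 ± 2.58 for Tbk1, 71.6 ± 4.06 for Sqstm1 and 64.5 ± 8.58 for Tardbp. It was 56.1 ± 10.4 for both Sod1 and Smn1, followed by 35.9 ± 3.93 for Pfn1 and 33.7 ± 7.02 for Kif5a. Ubqln2 stood at 30.8 ± 0.578 and Optn at 24.0 ± 1.03. Only at 3 steps of this order did the replicate ranges of neighbours not overlap: Tbk1 over Sqstm1, by 12.9 percentile points, Smn1 over Pfn1, by 20.2, and Ubqln2 over Optn, by 6.8. At every other step they overlapped.

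**Figure D1:**
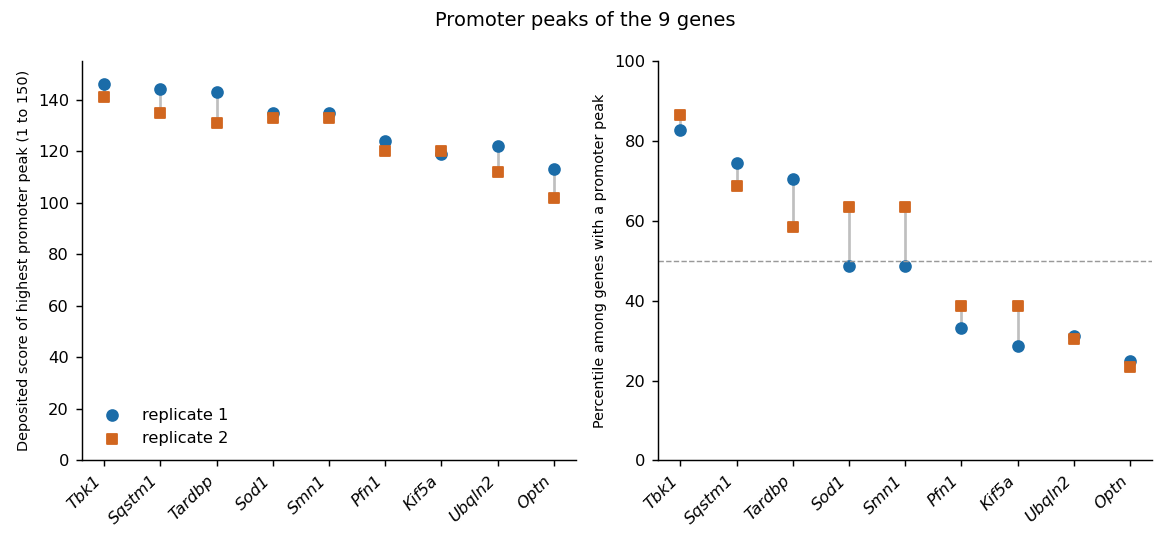
Left, the deposited score of the highest promoter peak of each gene in replicate 1 (circles) and replicate 2 (squares). Right, the same scores as percentiles among protein-coding genes with a promoter peak in that replicate, with the middle at 50 dashed; Tbk1 sat at 82.7 and 86.4 and Optn at 24.8 and 23.3.

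As a group the 9 promoters stood near the middle of open promoters. The lower of both percentiles had a median of 48.8 over the 9 genes, against 46.7 over all protein-coding genes with a shared promoter region. Only Tbk1 of the 9 reached percentile 75 of genes in both replicates. Over all 21911 protein-coding genes, of which only 13032 were open, 2399 (10.9%) did. The median number of shared promoter regions was 3 for the 9 genes and 3 for all open genes. Promoter hotspots had median widths of 1734 bp in replicate 1 and 1645 bp in replicate 2 at the 9 genes, against 1355 and 1279 bp at all open genes. Of the promoter peaks of the 9 genes, 29 of 38 in replicate 1 (76.3%) and 30 of 35 in replicate 2 (85.7%) had a partner in the other replicate, against 79.7% and 81.3% of all promoter peaks.

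**Figure D2:**
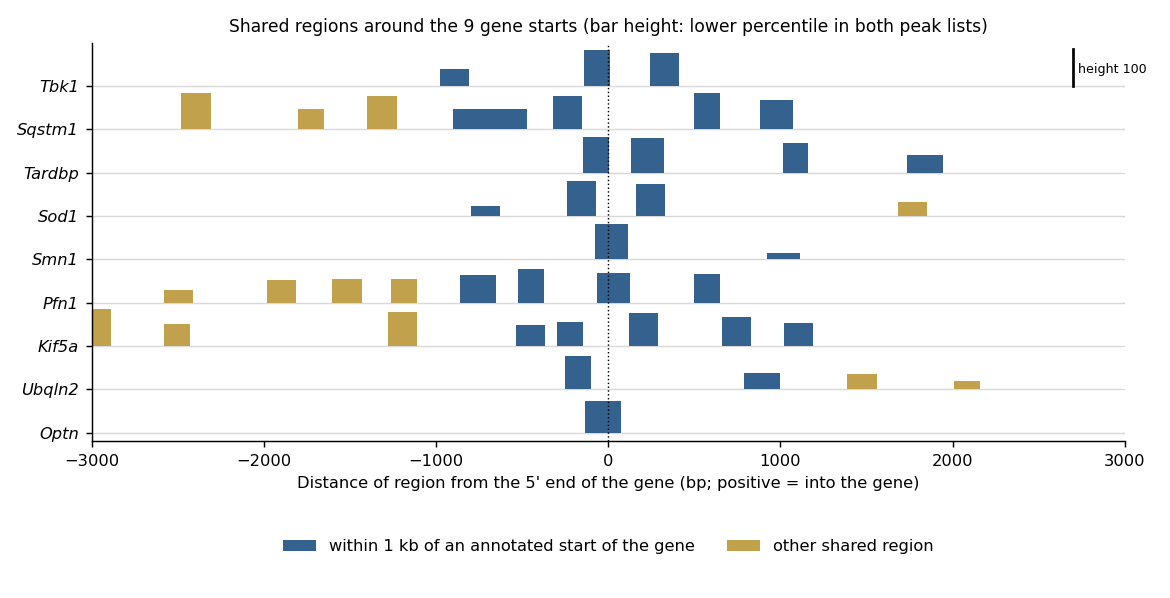
Shared regions within 3 kb of the 5′ end of each gene, drawn to scale along the gene; bar height is the lower of the region's percentiles in the 2 peak lists. Blue regions lie within 1 kb of an annotated TSS of the gene and gold regions do not; Optn had 1 blue region and Kif5a 5.

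Letters of the promoters are shown for the genes where they help to compare equal scores or to place a match. RefSeq windows of 300 bp on GRCm38.p6 matched 7 of the 9 genes, all but Ubqln2 and Kif5a. These short motifs were sought on both strands with no mismatch: the SP/KLF box GGGCGG, the NRF1 site CGCNTGCGC, the ETS site CCGGAAGT, the NFY box CCAAT, the cyclic AMP response element TGACGTCA, the E-box CACGTG, the antioxidant response element TGACNNNGC, the YY1 site AAGATGGCG, the AP-1 site TGANTCA and the TATA box TATAAA. Adjacent SP/KLF boxes can overlap, and the antioxidant element TGACTCAGC holds an AP-1 site. In the sequences below capitals mark these motifs on either strand, and only bases outside annotated exons are printed, 5′ to 3′ along the gene. A match describes the letters and is not evidence of a bound factor.

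Tardbp encodes TDP-43, a nuclear RNA-binding protein that forms aggregates in most amyotrophic lateral sclerosis. The gene (chr4:148612382-148627019, minus strand) had 4 shared promoter regions over 24 annotated TSSs. Its highest peak lay at the same place in both replicates (chr4:148627016-148627165), centred 72 bp upstream of the 5′ end, and scored 143 in replicate 1 and 131 in replicate 2. The next region, in the 5′ untranslated region (UTR), scored 134 and 120. The region 1088 bp into the gene, in an intron, scored 97 and 99. Peaks at Tardbp thus ran in a row from the start into the gene. The gene body held no further shared region.

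Smn1 encodes SMN, which assembles spliceosomal ribonucleoproteins, and Sod1 encodes the cytosolic copper/zinc superoxide dismutase. At both genes the highest promoter peak scored 135 in replicate 1 and 133 in replicate 2, at percentiles 48.8 and 63.5 of genes. The Smn1 peaks (chr13:100124816-100124965 in replicate 1 and chr13:100124776-100124925 in replicate 2) lay on the start of the gene (chr13:100124852-100137690, plus strand), whereas the Sod1 peaks (chr16:90220516-90220665 and chr16:90220536-90220685) were centred 163 and 143 bp upstream of the start (chr16:90220754-90226329, plus strand). Sod1 had a further strong region inside the gene, centred 247 bp from the 5′ end, with scores of 112 and 111. The second shared region of Smn1, 1019 bp into the gene, was weak, with scores of 53 and 29. These equally scored promoters differed in their letters, which is why both are printed.
Sod1, chr16:90220512-90220753, plus strand: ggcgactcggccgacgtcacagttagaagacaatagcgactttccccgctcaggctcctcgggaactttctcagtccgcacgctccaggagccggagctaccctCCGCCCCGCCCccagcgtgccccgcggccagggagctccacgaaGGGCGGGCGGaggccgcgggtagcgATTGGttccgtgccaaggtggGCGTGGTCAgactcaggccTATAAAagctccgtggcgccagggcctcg
Smn1, chr13:100124605-100124834, plus strand: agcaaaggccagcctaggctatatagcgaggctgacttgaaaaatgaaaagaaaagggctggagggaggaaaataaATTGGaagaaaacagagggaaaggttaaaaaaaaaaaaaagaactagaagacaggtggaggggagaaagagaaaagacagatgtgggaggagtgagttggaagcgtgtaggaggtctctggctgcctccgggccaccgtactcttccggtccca

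The Sod1 window held 4 SP/KLF boxes, all inside its strongest shared region, and an NFY box, an antioxidant element and a TATA box from the end of that region onwards to the start of the gene. The Smn1 window held an NFY box and none of the other motifs. Sod1 was rich in CpG dinucleotides, with an observed to expected ratio of 1.02, against 0.628 at Smn1. The median ratio was 0.758 over 10157 windows of open genes and 0.589 over all 16522 windows. Smn1 was the only gene of the 7 without an SP/KLF box in its window, a box found in 63.8% of the windows of open genes and 47.6% of all windows.

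Tbk1 encodes a kinase that phosphorylates the autophagy receptors OPTN and SQSTM1. The gene (chr10:121546455-121586787, minus strand) had the highest promoter peak of the 9, with scores of 146 in replicate 1 and 141 in replicate 2 at one place (chr10:121586776-121586925), centred 64 bp upstream of the 5′ end. A second promoter region in an intron scored 129 and 112, and another, 894 bp upstream, scored 50 and 54. The promoter hotspot of Tbk1 was 1752 bp wide in replicate 1 and 2882 bp in replicate 2. Its RefSeq window had the highest CpG ratio of the 7, at 1.05, and was the only one of them with an NRF1 site, found in 13.7% of windows of open genes. The upstream part of that window is printed because it lies at the highest of the 9 promoters.
Tbk1, chr10:121586795-121587044, minus strand: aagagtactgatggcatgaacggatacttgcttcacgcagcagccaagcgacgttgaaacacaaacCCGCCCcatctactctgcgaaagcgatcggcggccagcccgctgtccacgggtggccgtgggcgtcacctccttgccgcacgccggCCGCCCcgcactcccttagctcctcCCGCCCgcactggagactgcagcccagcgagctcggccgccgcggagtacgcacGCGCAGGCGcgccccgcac

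Sqstm1 encodes p62, a receptor that carries ubiquitin-tagged cargo to autophagosomes. The gene (chr11:50199366-50210827, minus strand) starts beside Mgat4b, which runs the other way, so the regions upstream of Sqstm1 also lie in or near Mgat4b. All 4 shared promoter regions of Sqstm1 lay within 1 kb of an Mgat4b TSS too, so their scores cannot be assigned to Sqstm1 alone. The highest promoter peak of Sqstm1 lay in an intron, centred 576 bp into the gene (chr11:50210176-50210325), with scores of 144 in replicate 1 and 135 in replicate 2. On the other side of the start, a region centred at 234 bp upstream scored 127 and 111, and regions followed at 1314 bp (125 and 113), 1724 bp (58 and 55) and 2394 bp (146 and 136). The last of these exceeded the promoter peak itself but lay outside the 1 kb window and inside Mgat4b. Sqstm1 thus had strong sites on both sides of its start.

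The stretch upstream of Sqstm1 is shown because an antioxidant element recurred in it; Sqstm1 is a known target of NRF2, the factor that binds such elements. The letters TGACTCAGC, which also hold an AP-1 site, were found in the regions at 234, 1314 and 1724 bp upstream. They were not particular to Sqstm1. The same letters occurred in the Sod1 promoter region 247 bp into the gene and in regions around Tardbp, Optn and Tbk1. In all, 4 of the 31 shared regions in and around Sqstm1 held the antioxidant element TGACNNNGC, read over 150 bp. Of all distal regions 8.57% held it, but the 31 regions also include promoter regions. Of the strongest promoter regions, none of the 7 matched genes' held it, against 9.0% of those of open genes. The region within the intron held an SP/KLF box and no antioxidant element.
Sqstm1, intron region, chr11:50210176-50210325, minus strand: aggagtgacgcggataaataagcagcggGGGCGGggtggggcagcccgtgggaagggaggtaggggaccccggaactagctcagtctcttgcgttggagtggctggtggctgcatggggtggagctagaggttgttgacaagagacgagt
Sqstm1, region 1314 bp upstream, chr11:50212056-50212225, minus strand: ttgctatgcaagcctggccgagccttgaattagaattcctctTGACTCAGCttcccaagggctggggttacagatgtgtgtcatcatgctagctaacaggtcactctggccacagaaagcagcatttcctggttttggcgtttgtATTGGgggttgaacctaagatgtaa

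Optn encodes optineurin, a receptor for the autophagy of damaged mitochondria and bacteria. Its promoter was the weakest of the 9, with scores of 113 in replicate 1 (chr2:5063976-5064125) and 102 in replicate 2 (chr2:5064036-5064185), at the start of the gene (chr2:5020642-5064051, minus strand). It was the only one of the 9 with a single shared promoter region, and its hotspot was 1013 bp wide in replicate 1 and 567 bp in replicate 2. This peak still stood at percentile 87.1 of all peaks of replicate 1 and 86.9 of those of replicate 2. The CpG ratio of the Optn window was 0.64.

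Ubqln2 encodes ubiquilin 2, which shuttles ubiquitinated proteins to the proteasome, and lies on the X chromosome (chrX:153498227-153501570, plus strand). Its highest promoter peak (chrX:153497976-153498125), centred 176 bp upstream, scored 122 in replicate 1 and 112 in replicate 2. A peak on the TSS itself scored 121 in replicate 1 but had no partner in replicate 2, where the same place lay within a hotspot. The promoter hotspot was 3021 bp wide in replicate 1 and 1536 bp in replicate 2. Its lower percentile of 30.4 stood at percentile 57.7 of the open genes of X. Of 948 genes on X 403 were open (42.5%), with a median lower percentile of 25.8. On the autosomes 60.8% of genes were open, with a median of 48.0. Whether the number of X chromosomes bears on its score was not tested.

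Pfn1 encodes profilin 1, which binds actin monomers. The gene (chr11:70651850-70654644, minus strand) is short, at 2795 bp, and its highest peak lay 447 bp upstream of the 5′ end (chr11:70655016-70655165), with scores of 124 in replicate 1 and 120 in replicate 2. The region on the start scored only 99 and 94, and one 573 bp into the gene scored 104 and 86. Although its peaks were modest, the widest hotspot touching the Pfn1 promoter measured 3567 bp in replicate 1 and 3444 bp in replicate 2. It stood at percentile 99.1 of the promoter hotspots of both. The highest peak also lay within a neighbouring long noncoding RNA gene. Whether the hotspot spans starts of other genes was not tested. The strongest region held a pair of NRF1 sites and a pair of SP/KLF boxes. An NRF1 site was present in the strongest region of 2 of 7 genes, Tbk1 and Pfn1, against 10.2% of 13030 genes with an open promoter.

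Kif5a encodes the neuronal heavy chain of kinesin-1, the motor that moves cargo along axons towards the synapse. The gene (chr10:127225696-127263348, minus strand) had 5 shared promoter regions, the most of the 9. The strongest, in the 5′ UTR, scored 119 in replicate 1 (chr10:127263056-127263205) and 120 in replicate 2 (chr10:127263076-127263225), and the others ranged from 60 to 91 in replicate 1 and from 60 to 90 in replicate 2. The hotspot was narrow, at 812 bp in replicate 1 and 679 bp in replicate 2, or percentiles 19.6 and 18.9. Among the highest promoter peaks of genes the strongest stood at percentiles 28.7 and 38.6, and among all peaks at 89.3 and 93.3. A stronger region with scores of 126 and 128 (chr10:127264456-127264625) began 1108 bp upstream of a TSS, just outside the 1 kb window. With a window of 2.5 kb the lower percentile of Kif5a was 37.6, in place of 28.7.

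Inside the genes, Kif5a held the most open sites. Outside their promoters the bodies of the 9 genes contained 13 shared regions, 6 of them in Kif5a, 2 each in Optn and Ubqln2 and 1 each in Sod1, Tbk1 and Sqstm1. Tardbp, Smn1 and Pfn1 had none. At least 1 such region was present in 6 of the 9 genes, against 48.6% of all protein-coding genes, open or not. Per 10 kb of gene the median was 0.461 for the 9 genes and 0.478 for all open genes. The density was 1.59 per 10 kb in Kif5a and 5.98 in Ubqln2, a gene of 3344 bp whose sites lay in its coding sequence. With 2.5 kb around each TSS of the gene left out, 8 of the 13 regions remained, in Kif5a and Optn alone.

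The Kif5a sites lay far from its start. The strongest (chr10:127226636-127226785), in the 3′ UTR and 36637 bp from the 5′ end, scored 122 in replicate 1 and 113 in replicate 2, which is close to its promoter. Another site (chr10:127229016-127229165), partly in a UTR, scored 101 and 100. All 6 regions were in the part of the gene nearer its 3′ end, and no shared region was found between the promoter and the site 26827 bp from the 5′ end. In Sqstm1 the single body region lay in coding sequence 10016 bp from the 5′ end, with scores of 93 and 97.

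**Figure D3:**
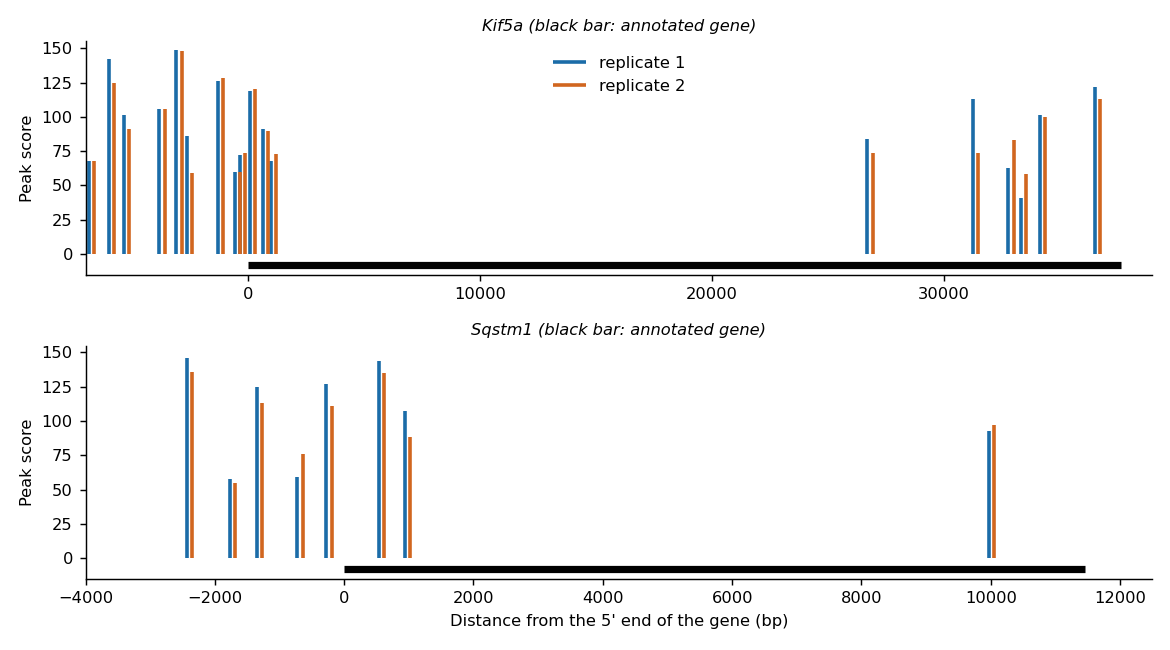
Peak scores of replicate 1 (blue) and replicate 2 (orange) in each shared region in and close to Kif5a and Sqstm1 against distance from the 5′ end of the gene in bp. Regions at negative distances include those of neighbours, such as the promoter of Dctn2 beside Kif5a (149 and 148). Sites in the promoter and body of Kif5a fell into a group at the start and a group near the 3′ end, where the highest scored 122 and 113. Sites clustered on both sides of the start of Sqstm1, and those upstream lay inside Mgat4b.

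The surroundings of the 9 genes varied widely. From 50 kb upstream to 50 kb downstream, the number of shared regions was 52 at Kif5a, 33 at Pfn1, 31 at Sqstm1 and 26 at Tbk1. It was 20 at Tardbp, 12 at Sod1, 10 at Optn, 9 at Ubqln2 and 7 at Smn1. The median was 20 for the 9 genes, against 18 for all open genes. Promoters of other genes made up 30 of the 52 regions around Kif5a and 18 of the 33 around Pfn1, but 11 of the 26 around Tbk1 and 7 of the 31 around Sqstm1. The promoter of Dctn2, a dynactin subunit of axonal transport, lay next to Kif5a and scored 149 in replicate 1 and 148 in replicate 2 (chr10:127266236-127266385), above each region in the promoter or body of Kif5a. Only 4 regions around Kif5a were distal and outside the gene, while Sqstm1 had 13, the most of the 9.

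**Figure D4:**
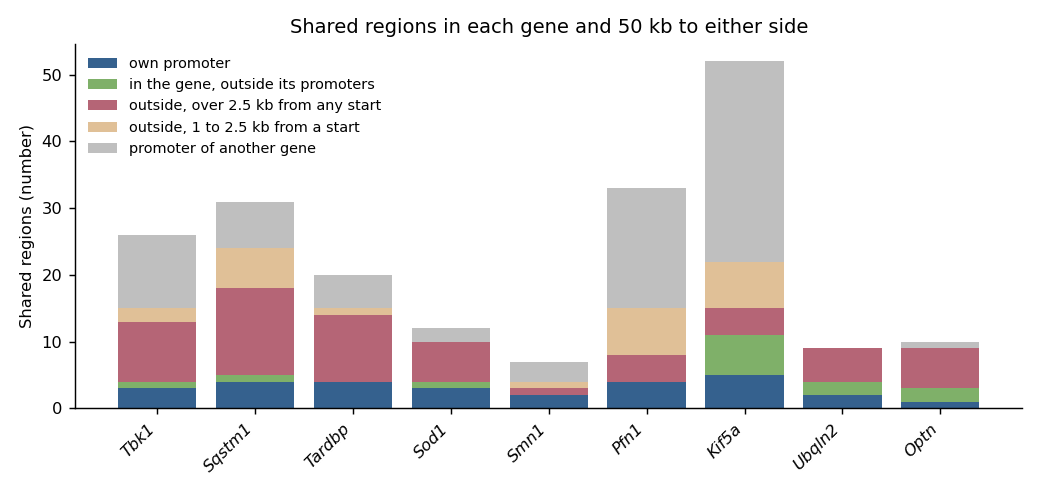
Number of shared regions in each gene and 50 kb to either side, stacked by position relative to the gene and to any annotated TSS. The total was 52 at Kif5a, mostly at promoters of other genes, and 7 at Smn1.

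Every one of the 9 genes had a distal region within 50 kb, against 79.9% of all protein-coding genes. Counting those inside the genes too, there were 66, with a median of 8 a gene against 7 for all open genes. Smn1 had a single distal region, scored 44 in replicate 1 and 64 in replicate 2. Strong ones were found near Tardbp, 19822 bp upstream (chr4:148646756-148646925, scores 141 and 132), near Kif5a, 5883 bp upstream inside Dctn2 (chr10:127269156-127269305, 142 and 125), and near Tbk1. At Tbk1 one lay 7464 bp upstream inside Xpot (140 and 120). Another lay beyond the 3′ end (chr10:121521076-121521245, 140 and 127) and held 3 AP-1 sites. Among the 51 distal regions near the 7 matched genes an AP-1 site was present in 10 (19.6%), against 17.5% of all distal regions, and an antioxidant element in 6 (11.8%), against 8.57%.

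Some peaks in the 9 genes and 50 kb to either side were found in 1 replicate alone. Their share of the peaks of a gene ran from 15.4% (Pfn1) to 38.9% (Optn) in replicate 1. In replicate 2 it ran from 8.57% (Sqstm1) to 46.2% (Smn1, 6 of 13 peaks). Near Sod1 the highest peak of 1 replicate alone scored 55 in replicate 1 and 30 in replicate 2. Near Pfn1 it scored 145 in replicate 1, at the start of Rnf167. Sqstm1 had peaks of 134 in replicate 1 and 121 in replicate 2 at different places near its start. Of the highest single-replicate peak of each gene in each library, all lay in a hotspot of the other replicate except the Sod1 peak that scored 30. Only these highest peaks were checked. The same share over all single-replicate peaks was not counted, so no conclusion on the 9 genes is drawn from it.

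Most other genes of the same diseases and pathways were open too. Of 47 other genes of inherited motor neuron disease 44 had a shared promoter region, with a median lower percentile of 57.1. The highest were 1810043G02Rik, Hnrnpa1, Slc52a2 and Ewsr1, and Erbb4, Hspb1 and Tuba4a had no promoter peak. All 14 genes of the SMN complex and its Sm protein clients were open (median 55.1), led by Snrpd2, Snrpd3, Snrpe and Gemin4. All 19 genes of selective autophagy were open (median 63.8), led by Gabarapl2, Azi2, Map1lc3b and Calcoco1, as were all 14 of kinesin-1 and axonal transport (median 59.5), led by Dctn2, Klc4, Trak2 and Dync1i2. These shares stand beside 59.5% of all protein-coding genes, and no test of them was made.

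Relatives of the 9 genes were divided. Of 15 close relatives and partners 10 were open (66.7%), which is near the 59.5% of all protein-coding genes. Kif5b, the ubiquitous kinesin-1 heavy chain, scored 131 in both replicates, and Kif5c, another neuronal one, 137 and 123. Both stood above Kif5a, and Kif5c held 21 shared regions in its body, or 1.35 per 10 kb. Ubqln4 scored 147 and 146 and Ubqln1 126 and 123, both above Ubqln2, while Ubqln5 and Ubqlnl had no promoter peak. Mitochondrial Sod2 scored 145 and 139, and the extracellular Sod3 had no peak. Pfn2 scored 137 and 122 and Pfn4 143 and 129, and Pfn3 had no peak. Ikbke, the kinase closest to Tbk1, scored 76 and 78. The promoter of Ikbkg scored 138 and 130. Ccs, the copper chaperone of SOD1, scored 133 and 117.

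Markers of motor neurons were present in part. Of 13 such genes 11 had a shared promoter region (84.6%), against 59.5% of all protein-coding genes. The median lower percentile was 48.8 for the 9 disease genes and 23.3 for these 11, whose values ran from 3.99 to 74.4. Isl1 scored 138 in replicate 1 and 137 in replicate 2, and Nefh, Ache and Prph were the others among the highest, while Mnx1 and Slc5a7 had no promoter peak. Nefh and Prph also belong to the list of other disease genes above, so these lists are not separate. Chat, which makes acetylcholine, scored 102 and 78. Of 15 markers of glia, muscle, blood and other cell types 2 were open, against 59.5% of all protein-coding genes. Gfap scored 113 in both replicates, and its lower percentile of 24.8 was above the motor neuron median of 23.3. Cx3cr1 scored 42 and 22. Acta1, Aif1 and Alb were among the 13 without a promoter peak. The labels name no tissue, so there was no stated cell type to check these against.

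**Figure D5:**
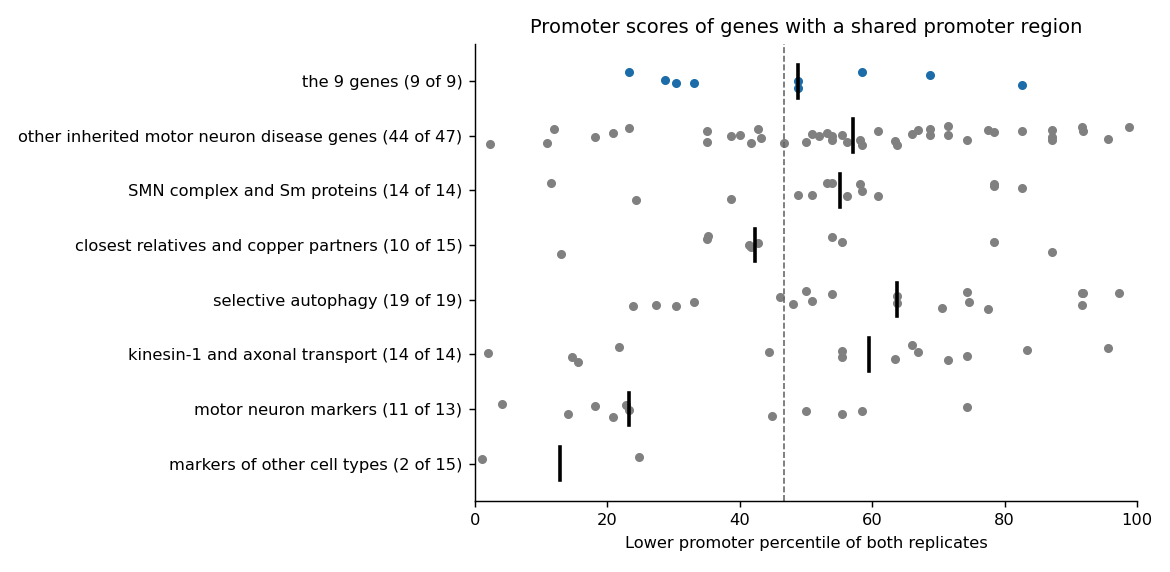
Lower promoter percentile of both replicates for each gene with a shared promoter region, by list, with the number of such genes of all genes in the list in brackets; black ticks are list medians and the dashed line is the median of all open protein-coding genes, 46.7. The 9 disease genes ran from 23.3 to 82.7 around a median of 48.8.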

How the data were processed

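DNase-seq peaks and hotspots of 2 libraries were used. Per the labels the assembly is mm10. Per the listing deposited with each library, both files were made from its own filtered alignment with 1 further input, so peaks were called per library and not pooled. Names of the aligner and the peak caller were not given in the sources used here. The authors deposited a score for each peak, with no stated unit, which was used only for ranks within a list. They deposited for each hotspot the −log10 of a false discovery rate, with 100 as the top value.

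Peaks on 21 chromosomes were kept and repeats (15 in replicate 1 and 26 in replicate 2) counted once. Peaks of both replicates overlapping by at least 1 bp were merged. A promoter was the 1 kb on either side of any TSS of the gene in GENCODE M21, and a gene with a shared region there is called open. Percentiles rank a gene's highest promoter score within a replicate. Motif shares were counted in RefSeq windows of GRCm38.p6 and in 150 bp around region centres. All 16522 windows equalled the genome used. The genes named are the 9, and in each other list the 4 with the highest lower percentile and up to 3 without a peak in alphabetical order. Close relatives may be named, except for a result not reported here, and so may neighbours whose TSS is nearest to one of a gene's 3 highest regions. Chat and Rnf167 were named after their values were seen. The 9 genes and all lists were chosen with earlier results of these data known. The steps were tested on simulated data. Python 3.11.15, pandas 2.3.3, numpy 2.4.6 and samtools 1.23.1 were used. Read depth is unknown, and no interval that needs it is given.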

Additional observations from a re-analysis of the deposited data

How the results depend on the processing

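No paired analysis was possible because the 2 libraries form 1 group. All 9 genes had an open promoter in each of the 8 alternatives tried (promoter windows of 500 bp and 2.5 kb, the 5′ end of the gene alone, the stronger 50% of peaks, an overlap of at least 75 bp, hotspots, and either replicate alone), and 43 to 45 of the 47 other disease genes did. The median percentile of the 9 genes, 48.8, was 44.4 with the stronger 50% of peaks, 50.7 with a window of 2.5 kb and 48.3 with one of 500 bp. With either replicate left out it ran from 48.8 to 58.4. Without replicate 1 it was 58.4, against 52.0 for all open genes, and without replicate 2 it was 48.8, against 53.2. The 9 genes thus stood above open genes in replicate 2 and below them in replicate 1. Since the main value is the lower of both replicates, leaving one out cannot lower it for any gene. The 13 regions in gene bodies became 6 with the stronger 50% of peaks, 8 with 2.5 kb around each TSS left out, and 20 to 21 with the peaks of 1 replicate alone. The 66 distal regions became 43 with the stronger 50% of peaks, 33 within 25 kb and 119 within 100 kb. Of 36 percentiles of single genes under the alternatives that keep both replicates, 8 moved by more than the spread between replicates. Read depth is unknown, and its part in what was called was not tested.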
